A study of Homo sapiens with 20 samples.

Results

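The NR4A orphan nuclear receptor genes NR4A1, NR4A2 and NR4A3 were described by the acetylation of histone H3 at lysine 27 (H3K27ac), which marks active enhancers and promoters. The cells were HCT-116, an established line from a human colorectal carcinoma, and either had intact FBXW7 (WT) or lacked it (KO, FBXW7-/-). FBXW7 is the substrate receptor of a ubiquitin ligase. Both genotypes received endoribonuclease-prepared short interfering RNA for 48 h, which was a control (esiCT) or targeted HDAC4, a histone deacetylase (esiHDAC4). During the last 24 h they were left untreated (UNT, solvent only, which was water) or received the platinum drug oxaliplatin at 50 µM (OXPT). The 8 groups were WT esiCT UNT, WT esiCT OXPT, WT esiHDAC4 UNT, WT esiHDAC4 OXPT, KO esiCT UNT, KO esiCT OXPT, KO esiHDAC4 UNT and KO esiHDAC4 OXPT, each with 2 libraries called replicates A and B, and all 16 libraries were used. How many KO clones were used is not given in the sources used. An element was any group of overlapping peaks, merged over the libraries, that reached the gene body or 50 kb on either side of it. This rule found 17 of 58860 merged elements, 143 of 271550 peaks, and 1 of 1873 merged super-enhancers (SEs), which are clusters of neighbouring peaks joined together and ranked by signal.

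The NR4A receptors bind DNA and regulate transcription without a known natural hormone, which is why they are called orphan receptors. They are immediate early genes. Their transcription rises within minutes to hours of growth factors, calcium, cyclic AMP or stress, through factors such as CREB and MEF2. MEF2 proteins recruit class IIa histone deacetylases, to which HDAC4 belongs. The receptors bind the NGFI-B response element (NBRE) alone or, for NR4A1 and NR4A2, together with retinoid X receptors. NR4A1 (also Nur77) is known for roles in T cell activation and apoptosis, NR4A2 (Nurr1) for the development of dopaminergic neurons, and NR4A3 (NOR1) for vascular and blood cells.

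The 3 loci differed in kind. NR4A2 carried a broad acetylated domain in 15 of 16 libraries and an SE in 13. NR4A1 had 10 small elements, at several of its start sites, in its introns, upstream of the gene and at its neighbour ATG101, with peaks in 11 libraries and no SE within 50 kb. NR4A3 had 6 small elements with peaks in 12 libraries, none of which lay within 1 kb of a start site of the gene, and no SE. At a stricter -log10 q of 10 or more, peaks remained in 8 libraries at NR4A2, 1 at NR4A1 and 0 at NR4A3. NR4A1 (ENSG00000123358.20) lies on the plus strand at chr12:52022832-52059507, NR4A2 (ENSG00000153234.16) on the minus strand at chr2:156324437-156342348, and NR4A3 (ENSG00000119508.18) on the plus strand at chr9:99821855-99866891. Positions are hg38, counted from 1.

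The sequences that carry these findings come from the hg38 reference and from RefSeq promoter entries (GRCh38.p14), written 5′ to 3′ on the strand of the gene. The first pair lies inside the NR4A2 domain and is centred on stretches of 124 and 38 bp that the peaks of all 15 libraries shared. Both lie in the intron of the long NR4A2 transcript, and their centres lie 5222 and 7647 bp upstream of the main start site at position 156332762. Capitals mark a match to TGANTCA, a loose form of the AP-1 motif that allows any base (N) at its centre. The match, TGAATCA, lies at the 5′ end of the second print and outside the 38 bp that all 15 libraries shared.
NR4A2 shared stretch 1, chr2:156337835-156338134, minus strand: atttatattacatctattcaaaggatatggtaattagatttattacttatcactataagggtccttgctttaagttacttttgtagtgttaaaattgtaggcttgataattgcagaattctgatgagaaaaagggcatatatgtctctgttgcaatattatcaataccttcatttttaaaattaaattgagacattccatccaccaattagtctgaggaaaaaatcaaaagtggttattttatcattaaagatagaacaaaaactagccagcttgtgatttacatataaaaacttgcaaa
NR4A2 shared stretch 2, chr2:156340260-156340559, minus strand: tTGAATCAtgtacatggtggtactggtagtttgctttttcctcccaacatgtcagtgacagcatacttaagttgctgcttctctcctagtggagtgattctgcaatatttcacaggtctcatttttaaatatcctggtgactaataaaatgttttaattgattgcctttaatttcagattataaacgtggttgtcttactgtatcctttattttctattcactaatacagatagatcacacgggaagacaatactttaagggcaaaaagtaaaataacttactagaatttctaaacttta
The first was 27.7% G and C and the second 33.0%. Over 58857 windows of 300 bases, each centred on the highest summit of a merged element, the median was 50.0% and the 5th percentile 32.0%. The first lay below that percentile and the second just above it, although both are centred on shared stretches and not on summits. The loose form of the AP-1 motif was found, on either strand, in 7.80% of those windows.

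The study also measured this domain by quantitative PCR with a primer pair that is shown because it locates the assayed site. Searched along chromosome 2, the primers matched as a pair at chr2:156333669-156334206, centred 1175 bp upstream of the main start site, in the intron of the long transcript. Peaks of 14 libraries overlapped that 538-bp interval. The study's methods give nearly the same interval for the NR4A2 element of its fluorescent reporter. By quantitative PCR, the paper reports more acetylation of this element after HDAC4 inhibition. It also places the NR4A2 SE in the group that gained acetylation with HDAC4 silencing in KO cells with OXPT.
NR4A2 forward primer: tcgatactcctctgtgccca
NR4A2 reverse primer: caagttgcaaaagggtcccg

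The second set shows the sequences of NR4A1 and NR4A3 whose acetylation is described below. Capitals mark TGACG on either strand, the core of the cAMP response element (CRE, TGACGTCA) to which CREB binds. The NR4A1 sequence is a promoter inside the gene, in an intron of its longest transcripts and hereafter the second promoter. No peak of a KO library overlapped it, but 1 KO library had a peak 618 bp from its start site (element 6 below). The first NR4A3 sequence is the promoter at the 5′ end of the gene, at which no library had a peak. The second NR4A3 sequence is the centre of element 4, the nearest recurrent element. It lies next to the start of a non-coding gene on the opposite strand, named below.
NR4A1 second promoter, chr12:52037465-52037714, plus strand: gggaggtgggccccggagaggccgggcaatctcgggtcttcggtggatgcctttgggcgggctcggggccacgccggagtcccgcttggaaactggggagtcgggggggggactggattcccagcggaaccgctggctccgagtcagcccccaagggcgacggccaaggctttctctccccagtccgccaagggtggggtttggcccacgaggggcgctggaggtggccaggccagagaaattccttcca
NR4A3 promoter, chr9:99821635-99821854, plus strand: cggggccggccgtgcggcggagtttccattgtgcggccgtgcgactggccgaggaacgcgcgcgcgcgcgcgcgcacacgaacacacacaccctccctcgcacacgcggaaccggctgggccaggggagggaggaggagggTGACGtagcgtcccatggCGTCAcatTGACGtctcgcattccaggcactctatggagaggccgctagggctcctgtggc
NR4A3 element 4, chr9:99819519-99819818, plus strand: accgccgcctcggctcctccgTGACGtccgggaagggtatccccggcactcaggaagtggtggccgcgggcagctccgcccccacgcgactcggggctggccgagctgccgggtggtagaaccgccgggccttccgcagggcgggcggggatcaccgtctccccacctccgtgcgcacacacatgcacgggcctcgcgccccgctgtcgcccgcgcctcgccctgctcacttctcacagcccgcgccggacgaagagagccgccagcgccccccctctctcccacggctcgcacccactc
The NR4A3 promoter held 3 matches to TGACG within 220 bases, and element 4 held 1. Among 34943 RefSeq promoters, 18.4% had at least 1 match in the same 220 bases and 0.687% had 3 or more. The NR4A1 second promoter held none, where 21.2% of promoters had a match in the same 250 bases. None of these 5 stretches held the full CRE or the NBRE (AAAGGTCA), which were found in 0.192% and 1.12% of the element windows. The full CRE contains TGACG on both strands. Letters of a motif are a description and do not show that a factor was bound.

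The libraries differed in the number of peaks called, and this bears on every comparison. Between 1752 (KO esiHDAC4 UNT replicate B) and 27927 (WT esiCT UNT replicate A) peaks were called in a library, and between 66 and 1265 SEs. The 4 KO libraries of replicate B held 1752 to 8216 peaks, and all the others at least 10562. The background pileup, the number of reads expected by chance at a quiet site, was 1.02 to 3.07 reads, so that the lowest fold callable there was 2.88 to 3.96. Read totals were not used here, and what set the length of a peak list was not tested. WT esiCT OXPT replicate B and WT esiCT UNT replicate A had backgrounds of 1.97 and 1.95 reads, with 10562 and 27927 peaks. Peaks near the FBXW7 start were called in 7 WT and 3 KO libraries, which does not test the deletion. All 7 epithelial marker genes had a start-site peak in 8 to 16 libraries. Among markers of blood, vessel, fibroblast and liver cells, 6 had none in any library, CD68 had one in 1 library, and COL1A1 in 11.

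At NR4A2, the peaks merged into a single element of 13761 bp, chr2:156331596-156345356. It covers the 5′ part of the gene, the main start site, the intron of the long transcript, the start of that transcript at 156342348, and sequence upstream of it. The 84 peaks were 238 to 9302 bp wide, with a median of 884 bp. Their summit fold, which is the pileup at the highest point divided by the local background, was 2.59 to 8.01, and 11 to 51 reads stood at the summit. The highest, fold 8.01 in WT esiHDAC4 UNT replicate B, rested on 37 summit reads (95% Poisson interval 26.1 to 51.0, counting error only). The best NR4A2 peak had a higher fold than 53.5% to 99.4% of the peaks of its own library, with a median of 90.3% over the 15 libraries.

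**Figure D1:**
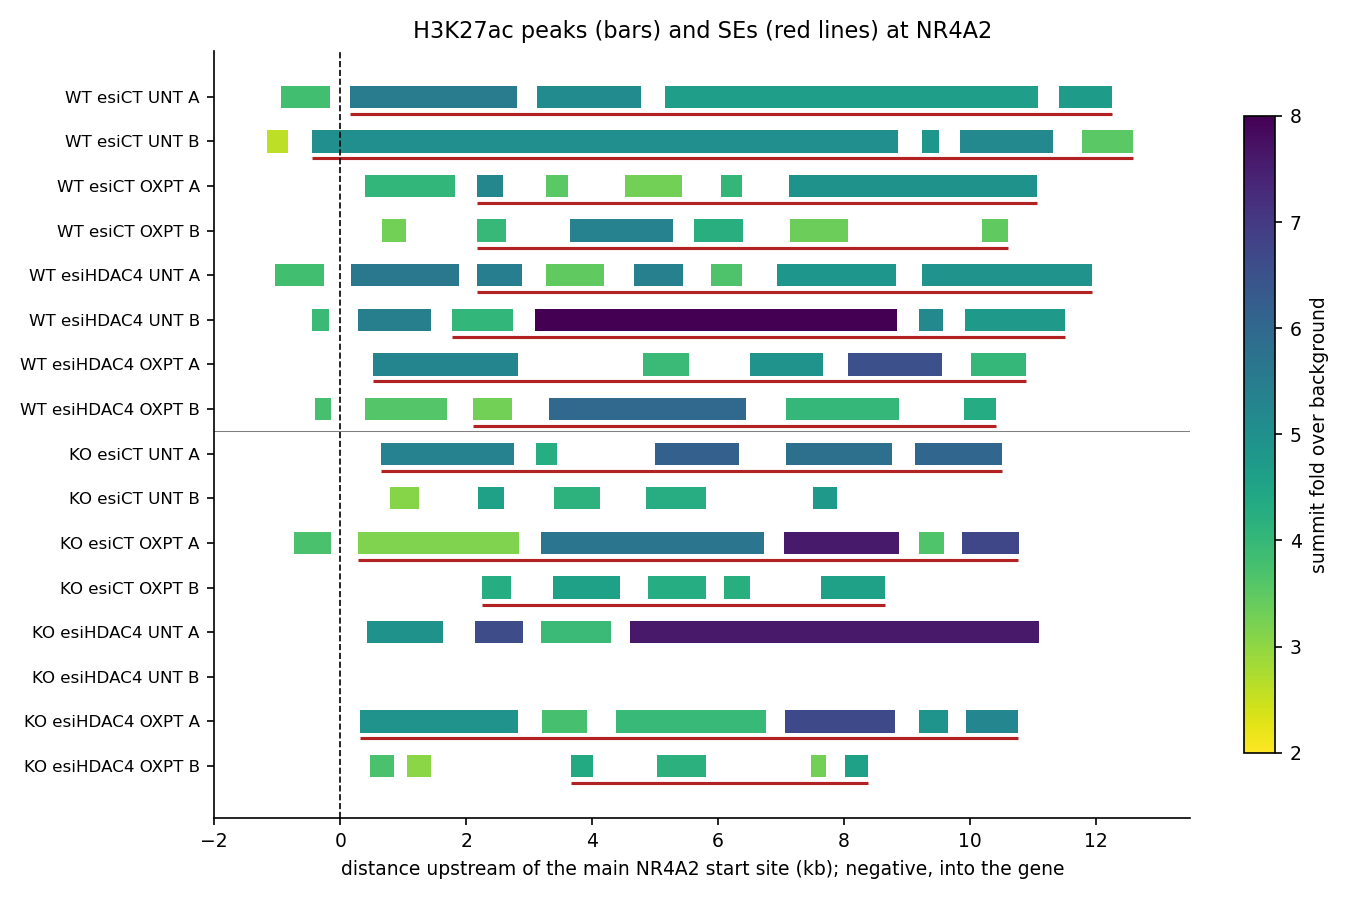
H3K27ac peaks at NR4A2 in each of the 16 libraries, against distance upstream of the main start site in kb. Bars are peaks coloured by summit fold, red lines are SEs, and the only library without a peak is KO esiHDAC4 UNT replicate B.

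The domain was not of even strength. Counted in steps of 500 bp upstream of the main start site, the steps that begin at 1000, 2000, 9000 and 10000 bp held 8 summits each, more than any other. The steps at 1500, 4000, 6500, 8500, 9500 and 11000 bp and the outermost covered step, in 1 library, held none. The steps at 5000 and at 7500 bp were covered in 15 libraries, 8 WT and 7 KO, and the step at 6500 bp between them in 9, 5 WT and 4 KO. The outer ends were covered in fewer libraries. The 3 steps from 11500 bp outwards were covered in 4, 2 and 1 libraries, all of them WT and UNT. The step furthest inside the gene was covered in 2 libraries, also WT and UNT. Every step between the main start site and 11499 bp upstream was covered in at least 1 KO library.

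**Figure D2:**
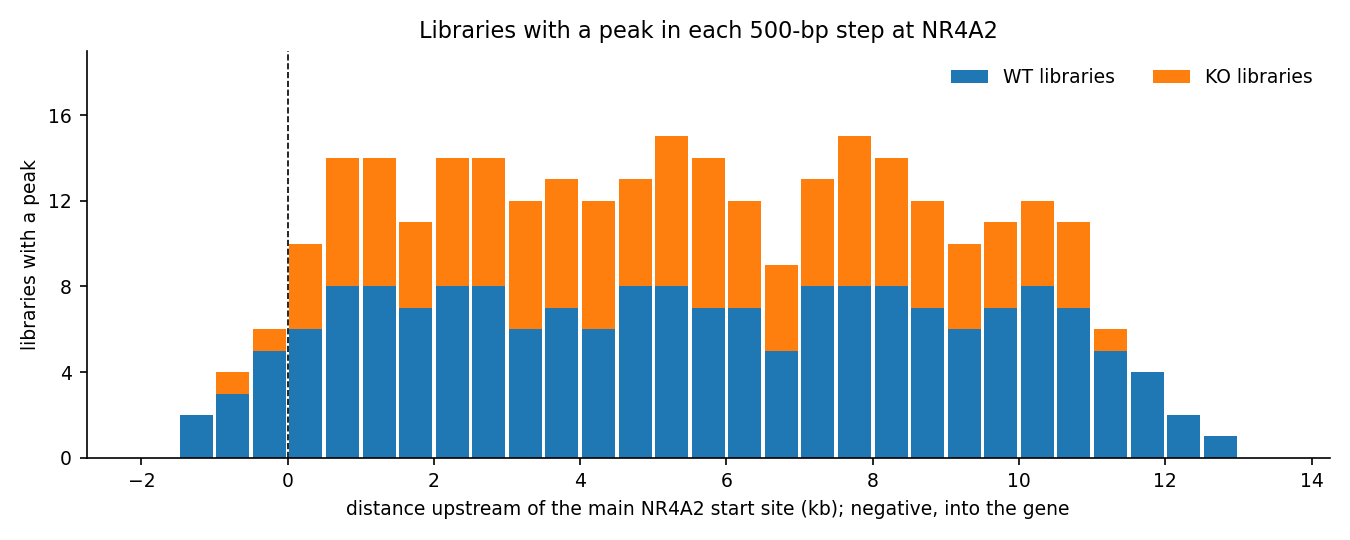
Number of libraries with a peak in each 500-bp step at NR4A2, against distance upstream of the main start site in kb. Stacked bars count WT (blue, of 8) and KO (orange, of 8) libraries, and the steps that begin at 5000 and 7500 bp reach 15.

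The NR4A2 SE, merged to chr2:156332315-156345356, was listed in 8 of 8 WT and 5 of 8 KO libraries, in 5 of 8 UNT and 8 of 8 OXPT libraries, and in 7 of 8 esiCT and 6 of 8 esiHDAC4 libraries. None of these differences passed the exact conditional test of presence stratified by replicate letter (p = 0.214 by genotype, 0.214 by drug and 1.0 by esiRNA). For comparison, 7.71%, 1.03% and 0.514% of the 778 tested SE regions had an unadjusted p under 0.05 in the same 3 comparisons, and 0 passed after adjustment. SE length was 8.30 to 13.04 kb in WT and 4.71 to 10.5 kb in the 5 KO libraries that had one, so the ranges overlapped. The shortest, 4.71 and 6.40 kb, were in the KO libraries of replicate B. An SE this frequent was rare: 222 of 20007 protein-coding genes (1.11%) had one within 50 kb in 13 or more libraries, and 84.8% had none in any.

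The SE was missing from KO esiCT UNT replicate B, KO esiHDAC4 UNT replicate A and KO esiHDAC4 UNT replicate B. The first and the last held 271 and 66 SEs, and the last had no peak at NR4A2. In KO esiHDAC4 UNT replicate A the NR4A2 peaks covered 9.56 kb, with a highest fold of 7.61, and joining that library's peaks over the stitching distance of the study's methods and ranking the clusters by width times fold put NR4A2 at 107 of 12053, in a library that lists 562 SEs. By the same ranking NR4A2 stood at 243 of 3441 in KO esiCT UNT replicate B, a library that lists 271 SEs. In KO esiHDAC4 OXPT replicate B, which lists 187 SEs, it stood at 214 and was listed. Over the 15 libraries it stood at 107 to 320. This ranking is not the authors' own, since 49.8% to 72.7% of the top clusters were listed as SEs in a library, and whether the lists were also filtered for H3K4me1 is not given in the sources used.

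The main NR4A2 start site and the start of the long transcript were then read separately, a choice made after the values were seen. A peak counts for a start site when any part of it lies within 1 kb, so the summit of a wide peak may lie elsewhere in the domain. At the main start site, the highest fold within 1 kb was 5.53 and 5.04 in WT esiCT UNT, 4.06 and 3.29 in WT esiCT OXPT, 5.61 and 5.44 in WT esiHDAC4 UNT, and 5.26 and 3.76 in WT esiHDAC4 OXPT, replicate A before B. In KO it was 5.37 and 3.09 in esiCT UNT, 3.72 and no peak in esiCT OXPT, 4.95 and no peak in esiHDAC4 UNT, and 4.93 and 3.73 in esiHDAC4 OXPT. Under esiCT, the OXPT library lay below the UNT library of its own genotype and letter in the 3 pairs with a peak in both. Under OXPT, the esiHDAC4 library lay above the esiCT library of its genotype and letter, also in the 3 pairs with a peak in both. The remaining pair of each kind rests on KO esiCT OXPT replicate B, which had no peak and in which no fold under 3.49 could be called at a quiet site, so neither pair has a measured order. These pairs share the 4 esiCT OXPT libraries. The summit itself lay within 1 kb of the main start site in 6 of the 14 libraries with a peak, and over 2 kb away in 2. In WT esiCT UNT replicate B it lay 7.44 kb away, so that pair does not compare the same position.

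As log2 changes of the main start-site fold, OXPT gave -0.53 ± 0.12 (SD, n = 2 pairs) in WT esiCT and -0.53 in KO esiCT replicate A. HDAC4 silencing under OXPT gave 0.29 ± 0.13 in WT and 0.40 in KO replicate A. With 2 pairs, an exact permutation test cannot go below p = 0.5. Among 4156 start sites called in 12 or more libraries, with libraries without a peak at the lowest fold of their list, 7.46% were lower with OXPT in all 4 esiCT pairs and 2.94% were higher with esiHDAC4 in all 4 OXPT pairs. By that rule the main NR4A2 start site counts in both, through a library without a peak. The share of sites that moved so in measured pairs alone is not given here. When every library was scaled by its median fold over the 472 regions called in all libraries, the OXPT change in WT esiCT shrank to -0.04 and -0.22, while the directions of all 6 pairs with a peak in both libraries held. Over all 16 libraries neither contrast passed at this site (OXPT against UNT -0.26, exact permutation p = 0.365, and esiHDAC4 against esiCT 0.17, p = 0.510). Of 15650 single start sites, 6.89% and 2.92% had an unadjusted p under 0.05 in these contrasts.

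At the start of the long transcript the fold was 4.67 and 5.17 in WT esiCT UNT, 4.96 and 3.46 in WT esiCT OXPT, 4.92 and 8.01 in WT esiHDAC4 UNT, and 6.54 and 4.31 in WT esiHDAC4 OXPT. In KO it was 6.04 and no peak in esiCT UNT, 7.60 and 4.56 in esiCT OXPT, 7.61 and no peak in esiHDAC4 UNT, and 6.68 and no peak in esiHDAC4 OXPT. The 4 KO libraries of replicate A, at 6.04 to 7.61, lay above 6 of the 8 WT libraries, and 3 of 4 KO libraries of replicate B had no peak there. The summit lay within 1 kb in 9 of the 13 libraries with a peak. For the fold of 8.01 it lay 6.16 kb away, and for that of 7.60 it lay 2.37 kb away. OXPT changed the log2 fold by 0.09 and -0.58 in the WT esiCT pairs, and by 0.33 and 1.79 in the KO esiCT pairs, the last against a library without a peak. KO against WT, the 16 libraries gave -0.52 at the main start site (exact permutation p = 0.0388, adjusted p = 0.142) and -0.50 at the long transcript (p = 0.159), where 30.5% of all single start sites had an unadjusted p under 0.05 and the median change was -0.53.

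**Figure D3:**
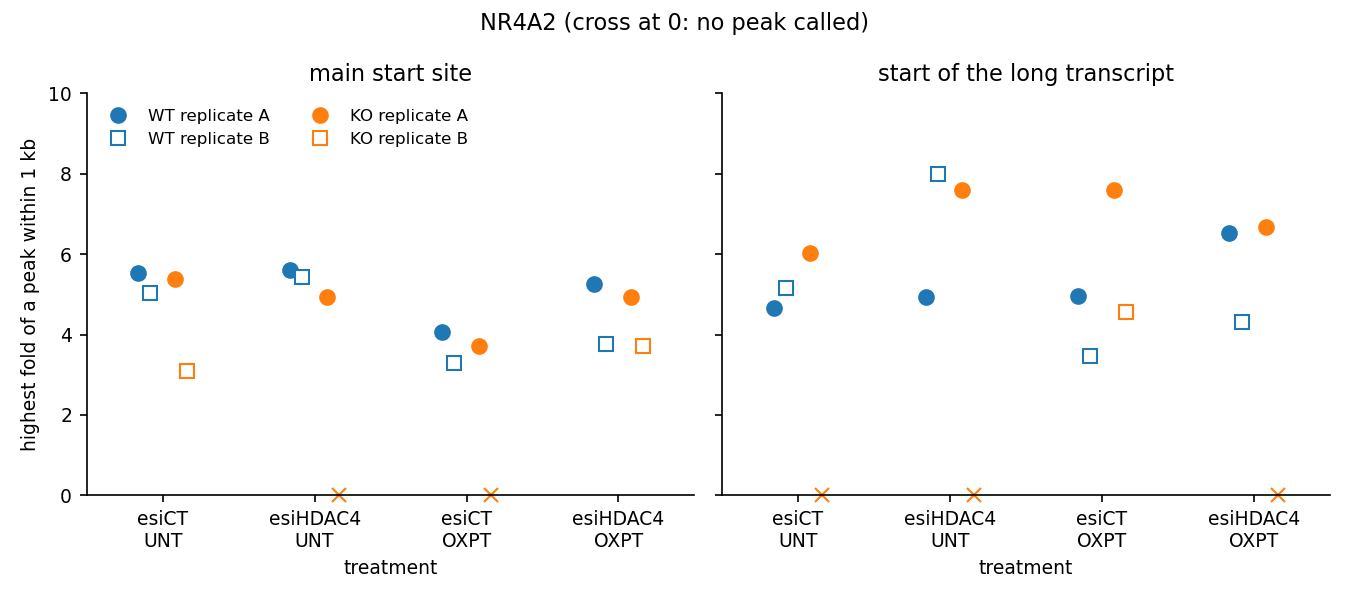
Highest fold of a peak reaching within 1 kb of the main NR4A2 start site (left) and of the start of the long transcript (right) in each library, by treatment. Points are single libraries, WT blue and KO orange, replicate A filled and replicate B open, with a cross at 0 where no peak was called, and at the main start both WT esiCT OXPT points (4.06 and 3.29) lie below the WT esiCT UNT points (5.53 and 5.04).

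When the highest fold over all NR4A2 start sites was taken, as for every other gene, the combined log2 start-site fold differed with OXPT by -0.16 and -0.58 in WT esiCT, and by 0.33 and 0.56 in KO esiCT. With HDAC4 silencing under OXPT it differed by 0.40 and 0.32 in WT, and by -0.19 and -0.29 in KO. Both pairs of opposite moves held in A and B, but 27.7% of 618 genes moved in the first way and 12.8% of 712 in the second, and the highest fold stood at different start sites in different libraries. After scaling by the median fold of the shared regions, the mean OXPT change in WT esiCT was 0.033 in place of -0.37. With only summits within 1 kb of a start site, HDAC4 silencing in KO OXPT gave 0.50 in place of -0.24. Over all 16 libraries the combined fold did not pass in any contrast (KO against WT -0.22, exact permutation p = 0.463, OXPT 0.07, p = 0.801, esiHDAC4 0.03, p = 0.923). By letter, the genotype difference was 0.30 among A libraries and -0.73 among B libraries.

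The length covered by peaks in the gene body with 50 kb on each side was a further measure, added after the values were seen. At NR4A2 it was 11.9 and 12.2 kb in WT esiCT UNT and 9.96 and 10.1 kb in WT esiHDAC4 UNT, replicate A before B. With OXPT it was 7.39 and 4.60 kb in WT esiCT and 6.56 and 7.58 kb in WT esiHDAC4. All 4 WT libraries with OXPT thus lay below all 4 without, 6.53 ± 1.36 against 11.03 ± 1.17 kb (SD, n = 4). The exact permutation p within WT was 0.0556, the smallest that 8 libraries allow. A WT drop without overlap was found at 15.3% of 15667 genes. The WT OXPT lists were also shorter as a whole, 6.03 to 18.4 Mb against 16.3 to 28.8 Mb of peaks, and the part of this in the drop was not tested. As a share of the peak length of each library, the NR4A2 ranges overlapped, 0.0402% to 0.0763% with OXPT and 0.0411% to 0.0612% without.

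In KO, the NR4A2 length was 6.85 and 2.92 kb in esiCT UNT, 9.79 and 3.88 kb in esiCT OXPT, 9.56 and 0 kb in esiHDAC4 UNT, and 8.62 and 2.49 kb in esiHDAC4 OXPT. Every replicate A library lay far above its replicate B partner. KO against WT, the means were 5.51 ± 3.68 and 8.78 ± 2.68 kb (SD, n = 8), a difference of -3.27 kb (exact permutation p = 0.0371, adjusted over all genes 0.0801). Within replicate A the difference was -0.23 kb (exact permutation p = 0.857), and within replicate B it was -6.30 kb (p = 0.0286). As a share of all peak length KO was higher, by 0.00902 percentage points (exact permutation p = 0.478). At 51.7% of 16295 genes the covered length had an unadjusted p under 0.05 between genotypes, so a decrease in KO was common, and the part of library depth in it was not tested.

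**Figure D4:**
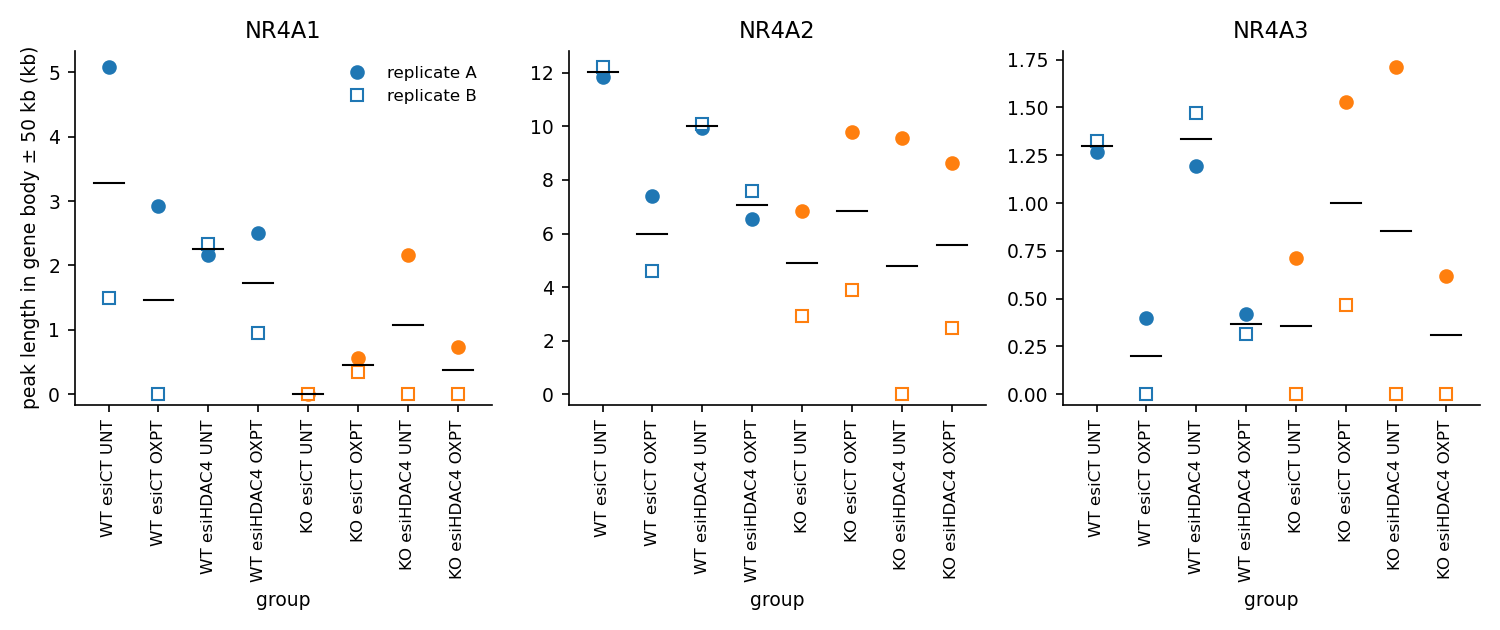
Length covered by H3K27ac peaks in the gene body with 50 kb on each side, in kb, for the 3 genes (the y axes differ). Points are libraries (WT blue, KO orange, replicate A filled, replicate B open), lines are group means, and all 4 WT OXPT libraries lie below all 4 WT UNT libraries at NR4A2 and at NR4A3.

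At NR4A1, 38 peaks formed 10 elements of 294 to 1830 bp. Their fold was 2.64 to 7.93, with 11 to 25 reads at the summit. The highest, at element 7 (chr12:52050120-52051245) 157 bp from a start site inside the gene, was 7.93 in WT esiCT UNT replicate A with 25 reads (95% Poisson interval 16.2 to 36.9). The same element had folds of 2.97 to 3.97 in the 4 other libraries with a peak. The most frequent, element 3 (chr12:52023963-52025792), lies in the intron 1.1 kb downstream of the 5′ end of the gene and was called in 10 libraries, 6 WT and 4 KO, at 3.00 to 5.29.

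Peaks at NR4A1 start sites were called mostly in WT libraries, whose peak lists were also longer in most cases. The start-site fold in WT was 7.93 and 4.05 in esiCT UNT, 4.04 and no peak in esiCT OXPT, 3.15 and 5.75 in esiHDAC4 UNT, and 3.34 and no peak in esiHDAC4 OXPT. In KO only esiHDAC4 UNT replicate A (3.39) and esiHDAC4 OXPT replicate A (3.97) had one. Thus 6 of 8 WT and 2 of 8 KO libraries had a peak, and the ranges of those called overlapped. With libraries without a peak set to the lowest fold of their list, the log2 difference KO against WT was -0.87 (exact permutation p = 0.0478, adjusted p = 0.153), -0.88 in replicate A and -0.86 in replicate B. Of 10742 genes, 31.7% had an unadjusted p under 0.05, and the median difference was -0.53. With uncalled libraries set instead to the lowest fold callable at their background, the NR4A1 difference was -0.19 (exact permutation p = 0.367). Neither OXPT (-0.54, exact permutation p = 0.221) nor HDAC4 silencing (0.18, p = 0.689) passed, where 6.53% and 2.96% of genes had an unadjusted p under 0.05.

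Besides elements 3, 6 and 7, which had KO calls, the NR4A1 elements were called in WT libraries only, apart from 1 KO library at element 10. Element 2 (chr12:52023066-52023677), by the 5′ end of the gene, was called in 3 WT libraries, at 5.35 in esiCT UNT, 3.99 in esiCT OXPT and 3.08 in esiHDAC4 OXPT, all replicate A (log2 difference -0.55, exact permutation p = 0.112). Element 4 (chr12:52033347-52034025) was called at 3.31 in WT esiCT OXPT replicate A and 3.33 in WT esiHDAC4 UNT replicate B. Element 1 (chr12:52004526-52004911), 17921 bp upstream of the gene, was called at 3.96 in WT esiCT UNT replicate A. Element 8 (chr12:52051618-52052390) was called at 3.92 in WT esiHDAC4 UNT replicate B, and element 9 (chr12:52069116-52069409), at ATG101, at 4.45 in WT esiHDAC4 OXPT replicate A. Each of the last 3 rests on 1 library.

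The genotype difference at NR4A1 elements 5 and 10 had an unadjusted p under 0.05. Element 5 (chr12:52037307-52038195), over the second promoter printed above, was called in 5 WT libraries, at 4.397 and 4.05 in esiCT UNT, 4.04 in esiCT OXPT replicate A, 5.75 in esiHDAC4 UNT replicate B and 3.34 in esiHDAC4 OXPT replicate A. No KO library had it (exact presence p = 0.0306, adjusted p = 0.258), so its fold change depends on the value given to uncalled libraries. The adjacent element 6 (chr12:52038333-52038659) was called in KO esiHDAC4 UNT replicate A alone, at 3.03. Element 10 (chr12:52069729-52071250), at the start of ATG101, an autophagy gene downstream of NR4A1, was called in 7 of 8 WT libraries at 2.64 to 4.95 and in 1 KO library at 3.49. Its log2 fold difference was -0.96 (exact permutation p = 0.00408, adjusted p = 0.0700) and its presence p 0.0102 (adjusted 0.258). Of 20090 elements, 13.6% had an unadjusted presence p under 0.05 between genotypes.

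The length covered by NR4A1 peaks was 5.08 and 1.49 kb in WT esiCT UNT, 2.93 and 0 kb in WT esiCT OXPT, 2.17 and 2.33 kb in WT esiHDAC4 UNT, and 2.501 and 0.946 kb in WT esiHDAC4 OXPT. In KO it was 0 and 0 kb in esiCT UNT, 0.566 and 0.343 kb in esiCT OXPT, 2.16 and 0 kb in esiHDAC4 UNT, and 0.739 and 0 kb in esiHDAC4 OXPT. The means were 0.476 ± 0.741 kb in KO and 2.18 ± 1.51 kb in WT (SD, n = 8, exact permutation p = 0.00286, adjusted over all genes 0.0263). The difference was -2.30 kb in replicate A (exact permutation p = 0.0286) and -1.11 kb in replicate B (p = 0.143). This passed after adjustment, but so did 4877 of 16295 genes, and with 100 kb on each side of the gene the difference no longer passed (-2.28 kb, exact permutation p = 0.135). With 10 kb on each side, which leaves out element 10, the difference was smaller (-1.13 kb, exact permutation p = 0.00286, not adjusted). As a share of each library's peak length, NR4A1 was still lower in KO, 0.00357% against 0.0111% (exact permutation p = 0.00694, adjusted 0.0875), where 22.0% of genes had an unadjusted p under 0.05. An SE at KRT80, a keratin gene, lay 83.8 kb from NR4A1 (chr12:52143287-52186810) and was listed in 15 libraries, 7 WT and 8 KO.

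At NR4A3, no peak lay within 1 kb of its start sites in any library, although 3 matches to TGACG stand in the promoter printed above. Element 4 (chr9:99819028-99819884), 2.0 kb upstream of the 5′ end and 75.0% G and C in the stretch shown, was called in 8 libraries. Its fold was 3.66 and 4.89 in WT esiCT UNT, 3.91 in WT esiHDAC4 UNT replicate B, 4.27 and 3.24 in WT esiHDAC4 OXPT, 4.48 in KO esiCT UNT replicate A, 5.16 in KO esiHDAC4 UNT replicate A and 5.02 in KO esiHDAC4 OXPT replicate A. Neither library of WT esiCT OXPT and neither of KO esiCT OXPT had it. Elements 1, 2 and 3, whose nearest ends lay 13905, 11103 and 9684 bp upstream, were each called once, all in KO esiCT OXPT, at 3.16 in replicate A, 3.44 in replicate B and 3.30 in replicate A. Element 5 was called once, in KO esiHDAC4 OXPT replicate A, at 3.14. Each of these rests on 1 library. A long non-coding transcript, STX17-DT, runs over the upstream elements on the opposite strand. Another non-coding gene on that strand, ENSG00000237461, has its 5′ end at 99819921, next to the end of element 4 at 99819884. The mark has no strand, and whether element 4 belongs to that start or to NR4A3 was not tested.

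Element 6 (chr9:99906029-99907874), at the start of the neighbour STX17, a membrane fusion gene of autophagy, was called in 6 UNT and 2 OXPT libraries. Its fold was 4.42 and 3.66 in WT esiCT UNT, 4.12 in WT esiCT OXPT replicate A, 4.17 and 4.64 in WT esiHDAC4 UNT, 4.76 in KO esiCT UNT replicate A, 4.57 in KO esiCT OXPT replicate A and 4.70 in KO esiHDAC4 UNT replicate A. The log2 difference OXPT against UNT was -0.88 (exact permutation p = 0.0159, adjusted p = 0.463), and the presence p was 0.0918. Through elements 4 and 6, the covered length in WT was 1.27, 1.33, 1.19 and 1.47 kb in the UNT libraries and 0.401, 0, 0.419 and 0.316 kb in the OXPT libraries. The groups did not overlap (1.31 ± 0.118 against 0.284 ± 0.195 kb, SD, n = 4, exact permutation p = 0.0556, the smallest possible). They did not overlap as a share of peak length either, 0.00439% to 0.00733% against 0% to 0.00288%, as at 4.18% of 15667 genes. In KO the ranges overlapped, 0 to 1.71 kb in UNT and 0 to 1.53 kb in OXPT. Over all 16 libraries the difference was -0.49 kb (exact permutation p = 0.0857), and at 2.74% of genes p was under 0.05. For esiHDAC4 it was 0.0035 kb (exact permutation p = 0.989), and at 0.509% of genes p was under 0.05.

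**Figure D5:**
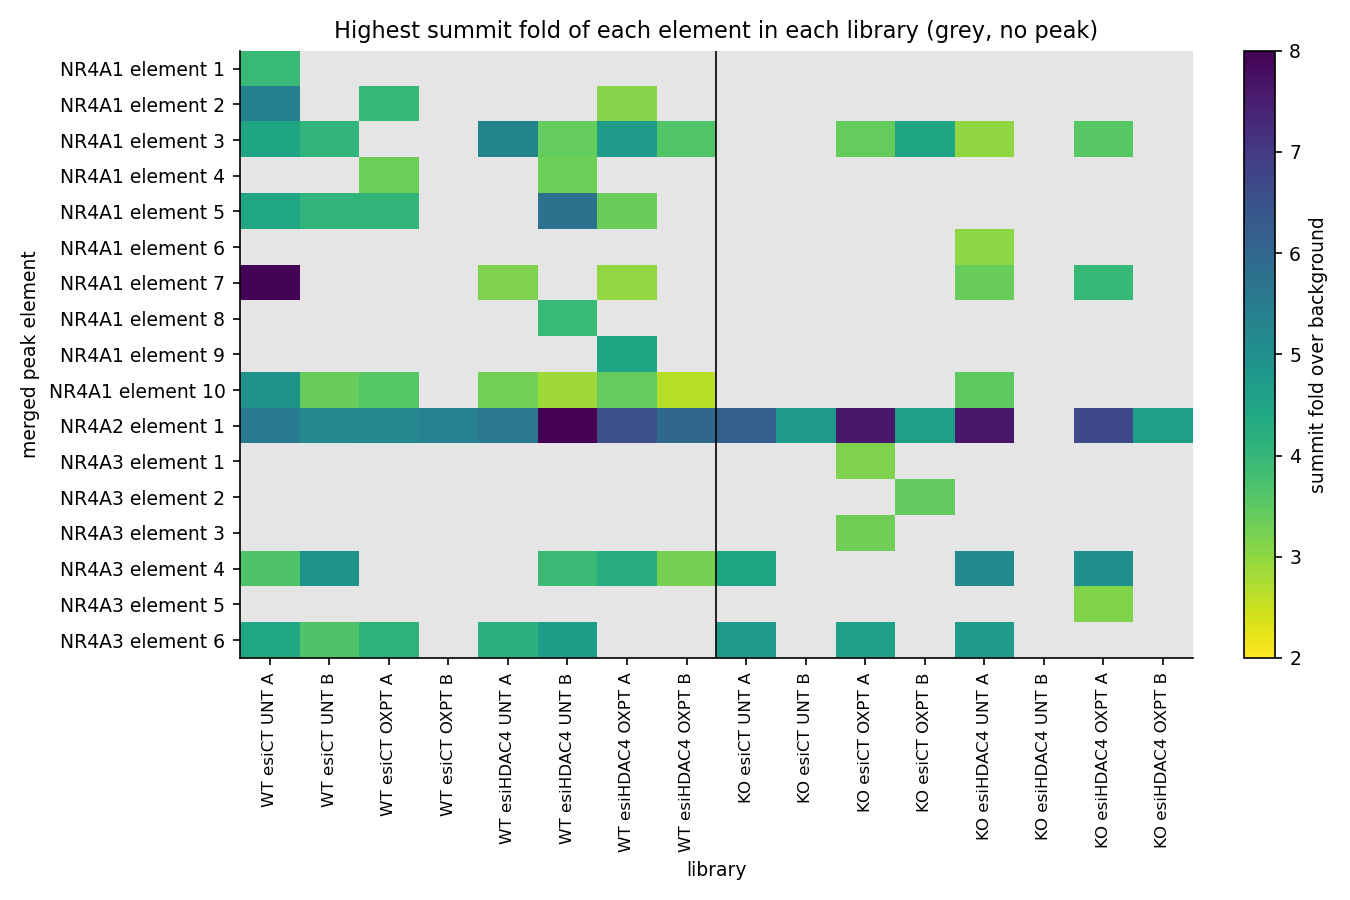
Highest summit fold of each of the 17 elements (rows) in each of the 16 libraries (columns), by colour, with grey where no peak was called. The line separates WT from KO. NR4A2 element 1 is called in 15 libraries, and NR4A1 element 5 in 5 WT libraries and no KO library.

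Over the elements called in 3 or more libraries, 8 of the 17 could be tested for summit fold. KO against WT, all 8 were lower, with a median log2 difference of -0.43. Of all 22137 tested elements 19347 were lower, with a median of -0.47. Unadjusted, 2 of the 8 had p under 0.05, NR4A1 elements 5 and 10, against 26.6% of all elements. None of the 8 passed after Benjamini-Hochberg adjustment (smallest adjusted p 0.0700), against 570 elements or 2.57%. With OXPT 1 of 8, NR4A3 element 6, had p under 0.05, against 9.8% of all elements, and with esiHDAC4 0 of 8, against 4.04%. In neither did any of the 22137 elements pass after adjustment. For presence, 2 of the 7 testable elements, again 5 and 10, had p under 0.05 between genotypes, against 13.6% of all elements, and 0 of 7 with OXPT or esiHDAC4, against 2.12% and 0.219%. Libraries without a peak entered at the lowest fold of their list, 1.23 to 1.54, which lies below what could be called at a quiet site.

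Complete switches, in which an element was called in both libraries of a group and neither of the other, came from NR4A1 element 3 and NR4A3 element 4. With OXPT in WT esiCT 2 of 10 elements were lost and none gained, where 9.92% of all elements switched. The lost ones were NR4A1 element 3 and NR4A3 element 4. With OXPT in KO esiCT 1 of 7 was gained, NR4A1 element 3, where 4.61% switched. With esiHDAC4 in KO OXPT 0 of 9 switched (3.39% of all), and with esiHDAC4 in WT OXPT 2 of 10 were gained, again NR4A1 element 3 and NR4A3 element 4 (3.12% of all). The first and last comparison share the WT esiCT OXPT libraries. The NR4A2 SE was in both libraries of all 4 WT groups and of KO esiCT OXPT and KO esiHDAC4 OXPT.

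The genes whose start-site fold over the 16 libraries was most like that of NR4A2, by Spearman's rho among 3021 genes with a start-site peak in at least 12 libraries, were EMG1 and PHB2 (0.87 each), INO80D (0.86), HOXA9 (0.85) and GTF2A1 (0.84). For NR4A1 they were PLEKHG5 (0.89), ABLIM1 (0.88), NUTF2 (0.87), ARHGAP45 (0.87) and MAP4K4 (0.86). The median over all genes was already 0.46 and 0.47, and all genes share the depth of a library.

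Other immediate early genes were read in the same way. Of 16 genes of the list, which held FOS, JUN and EGR family members among others, 9 had an SE within 50 kb in some library and 2 in 13 or more, as NR4A2 did. IER3 had a start-site peak in all 16 libraries and an SE within 50 kb in 16, while EGR3, in 2 libraries, had the fewest peaks. In the 15 that could be tested, 2 were lower in KO at an unadjusted p under 0.05, FOSL1 (-0.83) and JUN (-1.31), and 1 with OXPT, FOS (-0.80), on the log2 scale, where 31.7% and 6.53% of all genes had such a p. None passed after adjustment over all genes. The list medians were -0.40 by genotype, -0.19 by drug and -0.03 by esiRNA, beside -0.53, -0.22 and -0.11 over all genes tested.

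Of 18 regulators and partners of the receptors, PRKACB, a catalytic subunit of the cyclic AMP-dependent kinase, had a start-site peak and an SE in all 16 libraries, and RXRG, a retinoid X receptor, had no peak in any. RXRA and RXRB, the partners of NR4A1 and NR4A2, had peaks in 15 and 13. CREB1, which acts at the CRE, was called in 13, MEF2C in 14 and MEF2D in 12. HDAC4 itself had a start-site peak in 9 libraries, 6 WT and 3 KO, and an SE in 10, and its fold did not pass in any contrast. Of the 15 tested, 8 were lower in KO at an unadjusted p under 0.05, among them HDAC5 (-1.13), HDAC7 (-1.05) and CRTC2 (-0.94), and 3 with OXPT, MEF2A (-0.78), CRTC3 (-0.78) and PRKACB (-0.45), beside the same 31.7% and 6.53% of all genes. None passed after adjustment over all genes. The list medians were -0.54 by genotype, -0.23 by drug and -0.11 by esiRNA. ATF3, a stress-induced factor of the first list, had a start-site peak in 10 libraries and did not pass by genotype (0.17, exact permutation p = 0.646).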

How the data were processed

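H3K27ac ChIP-seq was measured in 16 libraries, 8 groups of 2, grouped by the labels. The 4 input samples came without processed values and were not analysed here. Per the labels and the study's methods, the authors used Trimmomatic 0.39 for trimming, Bowtie2 2.4.4 for alignment to hg38 and SAMtools 1.18, removed duplicates, called peaks per library with MACS2 2.2.7.1 and called SEs with ROSE. The deposited peak lists give an integer score made from the q-value, the ratio (fold) of the summit pileup over local background, and −log10 p-values and q-values. The deposited SE lists give positions only. The labels speak of pooled experiments and the methods of 2 biological replicates, so p-values measure only the spread between these libraries, which may be technical.

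Peaks overlapping by 1 bp or more were merged over libraries (Python 3.11.15, numpy 2.4.6, scipy 1.17.1, pandas 2.3.3), and 533 peaks and 28 SEs on other contigs were left out. Gene positions and start sites came from GENCODE release 44. The start-site fold is the highest fold of a peak within 1 kb of a start site, on the log2 scale for tests. A library without a peak took the lowest fold of its list. Contrasts were tested by two-sided exact permutation within replicate letters (4900 arrangements, smallest p 0.000408), and presence by an exact conditional test within letters. P-values were adjusted by Benjamini-Hochberg over all features called in 3 or more libraries (3 to 13 for presence) and a threshold of 0.05. The letter was kept as a replicate block since the study's own model held the replicate. Over 472 regions in all libraries, the deviations of same-lettered libraries correlated at -0.06 to 0.39 in 28 pairs of groups, and 12 were over 0.1, so the letters were not shown to pair the cultures. Summit reads and background were solved from the deposited fold and −log10 p with a tolerance of 0.01. Intervals are exact Poisson at 95% and cover counting error only. Depth is known here only through these background reads, 1.02 to 3.07 a library. The tests were tested on simulated data of 22137 regions, where 4.95% to 5.02% of unchanged regions had an unadjusted p under 0.05. The simulated noise was independent between regions and libraries. It held no library-wide differences such as those of these libraries, so this checks the code and not the error rate in these data.

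The genes, lists and tests were chosen with earlier results of these data known. The text names the 3 receptors with every element and SE in their windows, the protein-coding neighbours its results turn on, the 5 genes most like each receptor by start-site fold, and from the gene lists those with the most and the fewest libraries. List members with an unadjusted p under 0.05, the HDAC, MEF2 and RXR genes and ATF3 were named after their values were seen. Covered length, the separate start sites, and the values for uncalled libraries other than the lowest were added after seeing the data. RefSeq promoter sequences matched NR4A1 and NR4A3, and NR4A2 was not matched. One of the cell type markers is not reported here.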

Additional observations from a re-analysis of the deposited data

Results flagged for a closer look

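In each case below both libraries of a pair of groups moved one way and both libraries of the other pair moved the opposite way. The difference between the responses was not tested. For covered length and for the highest fold in a window, the share of all genes that moved in this way is not given here.

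With OXPT, the covered length fell in both WT esiCT pairs and rose in both KO esiCT pairs at all 3 genes. The mean change at NR4A2 was -6.03 kb in WT and 1.95 kb in KO, at NR4A1 -1.82 and 0.455 kb, and at NR4A3 -1.10 and 0.641 kb. In KO esiCT OXPT, NR4A1 held 1 peak per library, of 0.566 and 0.343 kb. NR4A3 elements 1, 2 and 3, each called in 1 library, were all called in that group. The lists of these groups moved alike, since the peak length per library fell from 28.83 and 23.07 Mb to 18.41 and 6.03 Mb in WT esiCT and rose from 8.82 and 3.81 Mb to 18.12 and 4.96 Mb in KO esiCT. The part of list length in these changes was not tested.

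The highest fold in the NR4A1 window changed with OXPT by -1.23 on the log2 scale in WT esiCT and by 1.504 in KO esiCT, where both KO UNT libraries and WT esiCT OXPT replicate B had no peak and took the lowest fold of their lists. The NR4A2 start-site fold over all start sites changed by -0.37 in WT esiCT and 0.45 in KO esiCT. HDAC4 silencing under OXPT changed it by -0.24 in KO and 0.36 in WT. At NR4A3, HDAC4 silencing under OXPT changed the covered length by -0.688 kb in KO and 0.167 kb in WT.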

How the results depend on the processing

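Under the alternatives other than leaving out 1 library at a time, 163 values stayed the same, 26 changed direction, 9 lost a call, 1 gained one, and 24 counts or values moved. These alternatives include called libraries only and replicate A only, which use fewer libraries. For tested differences, the same means the same direction and call, and for counts and responses it means a value close to the main one. For single values a call here means an unadjusted exact permutation p under 0.05, and counts of elements use the adjusted p. Where no cause is named, the cause was not tested. Without the replicate block, the NR4A1 start-site fold, KO against WT, was -0.87 (exact permutation p = 0.0586) and the NR4A2 covered length -3.27 kb (p = 0.0631), so both lost their call, and 351 elements passed between genotypes in place of 570.

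The NR4A1 start-site fold, KO against WT, also lost its call with called libraries only (-0.22), with uncalled libraries at the first percentile of their list (-0.36) or at the lowest callable fold (-0.19), and in replicate A alone (-0.88). The first 3 of these settings turned the esiHDAC4 difference at NR4A1 to -0.10, -0.039 and -0.10. They turned the OXPT difference at NR4A2 to -0.14, -0.049 and -0.099, as did ranks (-1.0 rank), peaks with -log10 q of 10 or more (-0.24) and the main start site alone (-0.26). At NR4A2, KO against WT was 0.30 in replicate A and had an unadjusted exact permutation p of 0.0388 (adjusted 0.142) at the main start site alone (-0.52), and with all peaks of the window the esiHDAC4 difference was -0.047.

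Lists of equal length gave -0.0913 kb for the NR4A1 covered length by genotype and the same by esiRNA, and 0.614 and 1.43 kb at NR4A2. Cut so, 1 library keeps a peak at NR4A1 and 8 at NR4A2, so the NR4A1 values say nothing on stability. A 100-kb window, which takes in the KRT80 SE in 15 libraries, gave -2.28 (exact permutation p = 0.135, no longer a call) and -0.723 kb at NR4A1. As a percent of peak length, NR4A2 turned to 0.00902 by genotype and 0.0119 by drug, and NR4A3 to 0.00113 by genotype and -0.000473 by esiRNA. In replicate A alone, the genotype difference was -0.235 kb at NR4A2 and 0.325 kb at NR4A3.

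Between genotypes, 949 elements passed after scaling by the median fold of shared regions, 1437 among those called in 8 or more libraries, and 0 with uncalled libraries at the lowest callable fold. Scaling turned the NR4A2 element to 0.032 by esiRNA and NR4A1 element 3 to 0.12 by drug. The combined NR4A2 start-site response to OXPT in WT esiCT was 0.033 scaled and -0.020 with all peaks. In KO esiCT it was 0.12 with all peaks, 0.14 with summits within 1 kb, -0.81 at the main start and 1.06 at the long transcript. The response to esiHDAC4 in KO OXPT was -0.042 scaled, -0.093 with all peaks, 0.50 with summits within 1 kb, 0.88 at the main start and -0.98 at the long transcript. In WT OXPT it was 0.29 scaled, 0.25 with all peaks and 0.29 at the main start.

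Leaving out 1 library at a time, the NR4A1 start-site fold by genotype was -1.04 to -0.68 and passed in 7 of 16 cases, and by esiRNA -0.081 to 0.42. NR4A2 was -0.32 to -0.054 by genotype, the last without KO esiHDAC4 UNT replicate B, -0.14 to 0.25 by drug and -0.16 to 0.24 by esiRNA. Covered length was -0.302 to 0.545 kb at NR4A1 by esiRNA, -3.94 to -2.67 kb at NR4A2 by genotype (8 of 16 passed), -1.42 to 0.470 kb at NR4A2 by esiRNA, -0.623 to -0.363 kb at NR4A3 by drug (3 of 16 passed) and -0.167 to 0.150 kb at NR4A3 by esiRNA. NR4A1 element 10 was -0.00252 to 0.31 by esiRNA, NR4A1 element 3 -0.22 to 0.16 by drug, and the NR4A2 element -0.066 to 0.33 by drug and -0.20 to 0.20 by esiRNA.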
